A study of Mus musculus with 60 samples.

Results

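The samples described here are 9 normal lymph nodes of wild-type mice, 3 from old and 6 from young animals, taken from a series of 60 arrays. They were picked by their labels, as the lymph nodes among the normal tissues, and the rule uses no measured value. The choice of the nodes and of the gene lists was made with earlier results of these data known. The young nodes, numbered 1 to 6 in the labels, came from mice of 38, 38, 38, 48, 52 and 73 days, and the old nodes, numbered 8, 9 and 10, from mice of 387, 394 and 438 days. The remaining arrays are a spleen of an old wild-type mouse (304 days), whose values are given only beside those of the nodes, and 25 early lymphomas (32 to 76 days) and 25 late lymphomas (253 to 649 days) of mice labelled Em-myc transgenic, which carry a Myc transgene driven in B cells by an immunoglobulin enhancer. No node received a treatment or carries a transgene according to the labels. The labels name neither strain, sex, body site nor batch, and do not say whether each node came from its own mouse. The p-values therefore reflect the spread among these 9 arrays, which may be technical.

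A lymph node is a capsule of connective tissue around compartments of B cells and T cells, which enter through high endothelial venules and are held on a network of reticular cells and collagen fibres. B cells that meet antigen can become plasma cells, whose transcriptome is given over to immunoglobulin, the endoplasmic reticulum (ER) and the factors Xbp1, Prdm1 and Irf4. In growing mice the fibroblasts of connective tissue make collagen, elastin and basement membrane at a high rate.

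Each array gives an intensity per probe set on a linear scale. Changes are given as log2(intensity + 15.7), old minus young, where 15.7 is the table's median of 157 divided by 10, and a value after ± is the standard error of a log2 change. For dim genes the added constant makes the printed change too small. A gene is said to have risen, fallen or been called where limma's p-value, adjusted by Benjamini-Hochberg over all 24000 probe sets kept, was under 0.05. All adjusted p-values are from that fit unless another is named.

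All 9 nodes carried lymph node transcripts and differed in those of neighbouring tissue. Glycam1, a sulphated ligand of high endothelial venules, lay between 7795 and 19159 in all 9 nodes and at 26.6 in the spleen. The B cell receptor gene Cd79a lay between 9435 and 15902 and the T cell receptor gene Cd3e between 2934 and 4750. The median intensity was 183 to 198 in young and 184 to 195 in old nodes, and correlations between arrays ran from 0.911 to 0.973. The mean log2 level of 12 salivary gland genes was 10.57, 7.56, 11.11, 9.12, 9.50 and 11.46 in young nodes 1 to 6 and 7.15, 10.12 and 6.50 in old nodes 8, 9 and 10. Pancreas and gut genes (15 genes) stood at 11.27 and 11.58 in young nodes 1 and 3, at 8.04 in young node 2, and between 6.23 and 7.20 in the other nodes of both ages. Adipocyte genes (25 genes) ran from 9.62 to 11.63 in young and from 9.52 to 10.20 in old nodes. The salivary level was thus highest in young nodes 1, 3, 5 and 6 and in old node 9, with young node 4 between these and the others, and the pancreatic level in young nodes 1 and 3. Single salivary genes differed in this, as Dcpp3 read 21347 in young node 4 and 1907 in young node 5.

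Sex-linked genes and RNA measures also varied between the nodes. Xist, expressed from the inactive X chromosome, was at 244 and 401 in young nodes 1 and 4 and between 15441 and 18924 in the other 7 nodes, all 3 old ones among them. The Y-linked gene Eif2s3y was at 1283 and 1389 in young nodes 1 and 4 and at most 34.9 in the others. The 3-prime over 5-prime signal of Gapdh, a measure of RNA integrity and labelling, on the log2 scale was -0.51 to -0.38 in young and -0.33 to -0.30 in old nodes, so that the groups did not overlap (two-sided exact permutation p = 0.0238, the smallest that 84 divisions of the nodes allow, adjusted to 0.0714 over 3 measures). The same ratio for beta-actin overlapped (exact p = 0.524).

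**Figure D1:**
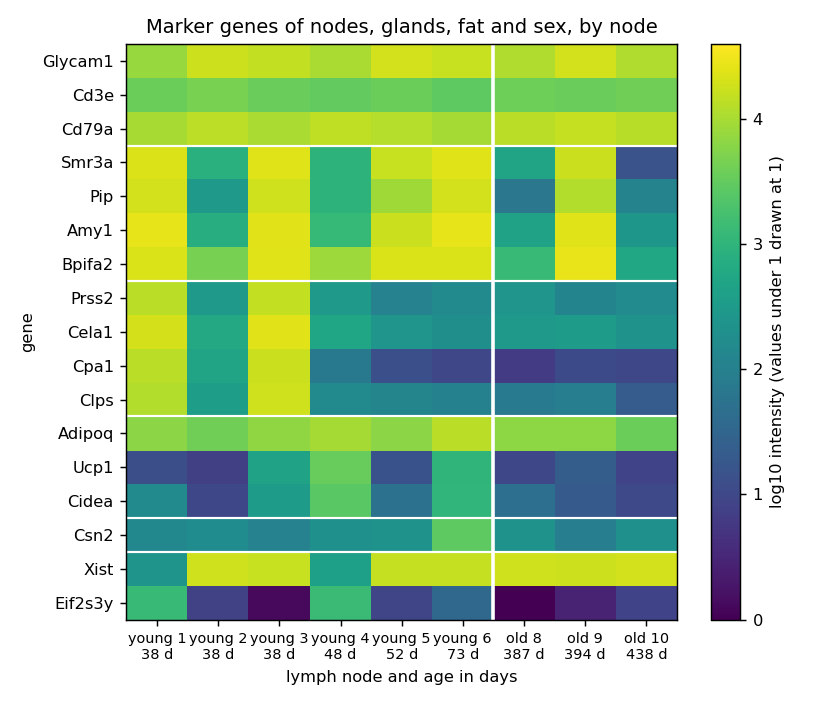
Intensity of marker genes (rows, log10 colour scale) in each of the 9 lymph nodes (columns, with age in days). From the top the blocks are lymphoid genes, salivary gland, pancreas, fat, milk protein (Csn2) and sex-linked genes. Pancreas genes stand out in young nodes 1 and 3, the 4 salivary genes drawn in young nodes 1, 3, 5 and 6 and old node 9, and Xist is low in young nodes 1 and 4.

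Against this background 434 of 24000 probe sets were called between old and young nodes (1.81%), 267 higher (1.11%) and 167 lower (0.696%) in the old ones. Of these 143 changed at least 2-fold. An unadjusted p under 0.05 was reached by 4291 of the 24000 probe sets. The counts of list members at that threshold are to be set beside this share. With 1 probe set for each of 11514 genes, 232 genes were called (2.01%), 156 higher (1.35%) and 76 lower (0.66%). In 734 genes every old node lay above every young one (6.37%), and in 503 every old node lay below (4.37%). The median change over all genes was 0.005, on arrays that the deposited scaling had already set to a common level.

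**Figure D2:**
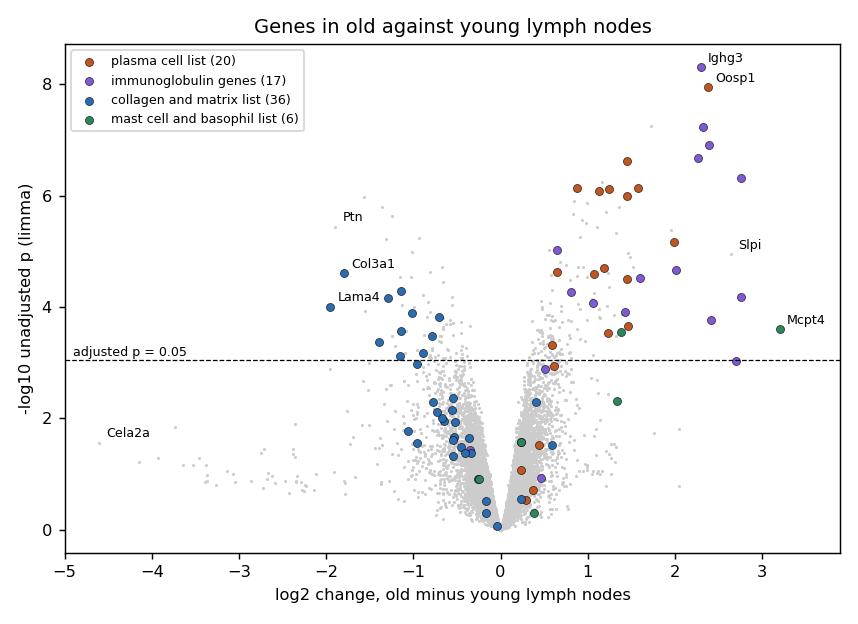
Change of 11514 genes between old (n = 3) and young (n = 6) lymph nodes, as the log2 change on the horizontal axis and -log10 of the unadjusted limma p on the vertical axis. Coloured points are members of 4 gene groups, and the dashed line lies at the adjusted threshold. Plasma cell and immunoglobulin genes lie at the upper right and most matrix genes at the left.

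The count depended on which nodes were included. Leaving out 1 node gave 202 without young node 1, 239 without young node 3, 283 without young node 4, 190 without old node 8 and 176 without old node 10, and within 1.5 times of 434 for the others. It was 120 without young nodes 1 and 3, which held pancreas genes, 132 without the Xist-low young nodes 1 and 4, and 51 without the nodes richest in salivary genes (young nodes 1, 3, 5 and 6 and old node 9), which leaves 2 nodes a group, young node 4 with its intermediate salivary level among them. With the Gapdh ratio as a covariate it was 12, and because that ratio did not overlap between the ages, RNA quality and age cannot be told apart in these nodes.

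Antibody-secreting cell genes were higher in the old nodes across the list. Of 20 plasma cell genes tested 15 rose and 0 fell, with a median change of 1.16, against 1.35% of all genes higher. In 16 of the 20 every old node lay above every young node, against 6.37% of all genes. The mean log2 level of the list was 10.33 to 10.49 in the young nodes and 11.31 to 11.78 in the old ones, and 11.36 in the old spleen. In bulk tissue more cells of a type and more RNA per cell cannot be told apart.

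The transcription factors that set the plasma cell state were higher. Xbp1, which drives the secretory programme, had intensities from 6242 through a median of 7579 to 9805 in young nodes and of 18034, 16177 and 16940 in old ones. The change was 1.13 ± 0.12 (adjusted p = 0.00073), with no overlap between the groups. Prdm1, the repressor that ends the B cell programme, had a young range of 373 to 484 (median 436) and old values of 1250, 948 and 923. It rose by 1.24 ± 0.13 (adjusted p = 0.000708), and old node 8 was highest. Irf4, the third of these factors, rose by 0.60 ± 0.12 (adjusted p = 0.0365), from 1275 to 1867 in young nodes to 2613, 2093 and 2072 in old ones.

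Surface and secreted markers of these cells followed. Sdc1, the proteoglycan CD138 used to recognise plasma cells, lay between 399 and 636 in young nodes (median 494) and at 1766, 1282 and 1202 in old ones. It rose by 1.46 ± 0.15 (adjusted p = 0.000865). Tnfrsf17, the survival receptor BCMA, lay between 161 and 240 (median 219) in young nodes and at 831, 392 and 388 in old ones, a rise of 1.24 ± 0.24 (adjusted p = 0.0279). Jchain, which joins polymeric IgM and IgA, lay between 13704 and 16386 in young nodes (median 15215) and at 25864, 26005 and 31849 in old ones. Its rise of 0.88 ± 0.09 (adjusted p = 0.0007) was smaller, and its intensities were among the highest on the arrays. For all 3 markers the old and young nodes did not overlap.

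The largest rise of the list was that of Oosp1, an oocyte-secreted protein gene that was listed here with the plasma cell genes. Its intensities were 136, 198, 169, 207, 175 and 234 in young nodes 1 to 6 and 1130, 1112 and 858 in old nodes 8, 9 and 10. The groups lay far apart, and the change was 2.38 ± 0.16 (adjusted p = 6.75e-05). In the old spleen it was 998.

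**Figure D3:**
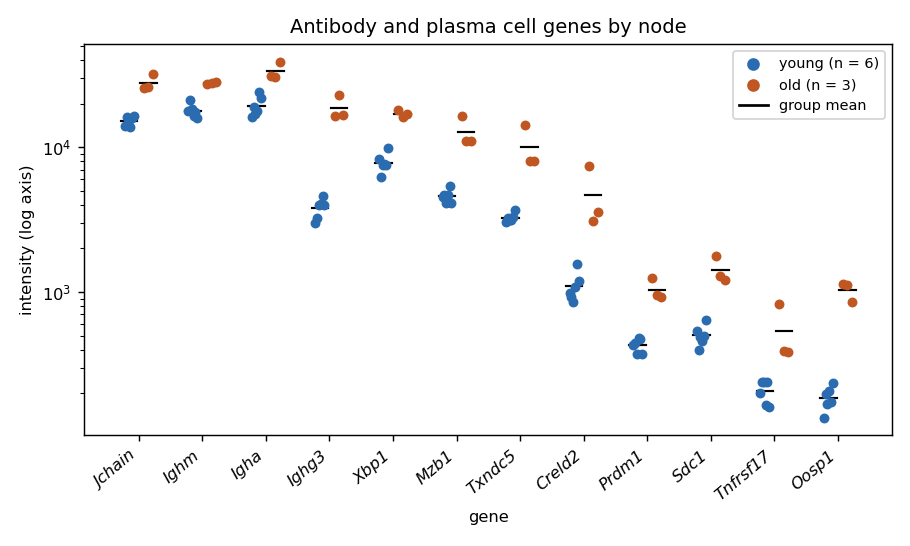
Intensity (log axis) of 12 antibody and plasma cell genes in the 6 young and 3 old lymph nodes, each point 1 node and each bar the mean of a group. For each of these genes all old nodes lie above all young nodes.

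Immunoglobulin transcripts rose with them. Of 23 entries of the list 6 had a probe set and 4 passed the filter. All 4 rose, against 1.35% of all genes higher, with a median of 1.55. Without a filter 4 of 6 rose, with a median of 0.74. Ighg3, the constant region of IgG3, lay between 2995 and 4574 in young nodes (median 3976) and at 16514, 23073 and 16639 in old ones, a rise of 2.30 ± 0.15 (adjusted p = 3.9e-05). Ighm, of IgM, rose by 0.65 ± 0.09 (adjusted p = 0.00355), from 15814 to 21143 in young nodes to 27530, 27828 and 28210 in old ones. Igha, of IgA, rose by 0.80 ± 0.13 (adjusted p = 0.0113), from 16080 to 23940 in young nodes to 31102, 30652 and 38947 in old ones. Its probe set may also read other immunoglobulin transcripts, which was not tested. The IgG3 change was the larger of these, and Ighm and Igha were near the brightest values of the arrays, where the highest probe set per old node read 33797 to 40576.

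Taken by symbol, a set chosen after the values were seen, 13 of 17 immunoglobulin genes rose and 0 fell, against 1.35% of all genes higher, with a median of 2.02. Among the variable segments 9 of 13 rose. Igkv6-14, a kappa variable segment, lay between 845 and 2011 in young nodes (median 1383) and at 9026, 12010 and 7407 in old ones, a rise of 2.76 ± 0.27 (adjusted p = 0.000529). Ighv14-2 did not pass, with a change of -0.35. Probe sets for these segments share sequence, so the reading of one can include others. A second probe set of Igk changed by -0.47 where the first changed by 2.40, and one of Iglv1 by -0.25 where the first changed by 2.33.

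The plasma cell and immunoglobulin counts held in part when nodes were left out. Without young nodes 1 and 3 they were 12 of 20 and 10 of 17, without young nodes 1 and 4 they were 12 and 11, and without the salivary-rich nodes they were 3 and 7. Oosp1 (adjusted p = 0.0151) and Ighg3 (adjusted p = 0.0108) stayed past the threshold there. With the Gapdh ratio as a covariate 1 and 2 remained, with medians of 1.27 and 1.92.

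Some genes of the ER, which folds and exports antibody, also rose. Of 20 ER secretory and unfolded protein genes 6 rose and 0 fell, against 1.35% of all genes higher, with a median of 0.45, and 19 lay above 0. Sdf2l1, an ER chaperone cofactor, lay between 830 and 1132 in young nodes and at 2593, 1887 and 1528 in old ones, a rise of 1.00 ± 0.15 (adjusted p = 0.00681). Hspa5, the main ER chaperone BiP, lay between 8967 and 11605 (median 9816) in young nodes and at 19393, 13568 and 16455 in old ones, a rise of 0.69 ± 0.12 (adjusted p = 0.0161). Among the plasma cell genes that act in the ER, Creld2 lay between 858 and 1562 (median 1030) and at 7377, 3073 and 3572, a rise of 1.99 ± 0.26 (adjusted p = 0.00283). Old node 8 was the highest in each of these 3. The count of ER genes was 1 without old node 8, 2 without old node 10, 3 without young node 1, 3 or 4 each, and 1 without young nodes 1 and 3 together or 1 and 4 together. It was 0 without the salivary-rich nodes and 0 with the Gapdh ratio as a covariate.

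The promoters of several of these genes hold the ER stress response element, to which the factors of the unfolded protein response bind. It consists of CCAAT and CCACG with 9 bases of any kind between them, and was searched on both strands of the RefSeq promoters (GRCm38.p6, 250 bases before to 50 after the start of each gene). It was present in 37 of 27025 promoters (0.137%) and in 9 of 35 plasma cell and ER genes that passed the filter and had a promoter entry (25.7%). The list of ER secretory and unfolded protein genes gave 7 of these 9, and the 27025 promoters were not filtered by expression. The excess is thus a trait of how the lists were made and does not bear on age. Of the 18 list genes that rose 4 had the element (22.2%), and of the 17 that were not called 5 had it (29.4%). Of 24 matrix genes 0 held it. Among the uncalled genes with the element, Hsp90b1 changed by 0.75 (adjusted p = 0.052), Syvn1 by 0.52 (adjusted p = 0.132), Pdia6 by 0.38 (adjusted p = 0.0826) and Dnajc3 by 0.27 (adjusted p = 0.173). Their windows are not shown. The windows below show the element in capitals for the 4 called genes and for Canx, the uncalled gene with the smallest change (0.12, adjusted p = 0.494). They read 5′ to 3′ along the gene, and in Calr, Creld2 and Derl3 the capitals are the reverse complement of the letters above.
Creld2, chr15:88819490-88819568, plus strand: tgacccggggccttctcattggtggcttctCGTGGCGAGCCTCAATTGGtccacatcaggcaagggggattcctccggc
Derl3, chr10:75893212-75893290, plus strand: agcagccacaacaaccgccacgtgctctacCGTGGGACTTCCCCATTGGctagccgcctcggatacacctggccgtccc
Hspa5, chr2:34771995-34772073, plus strand: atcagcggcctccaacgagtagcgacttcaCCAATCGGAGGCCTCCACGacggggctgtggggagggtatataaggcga
Calr, chr8:84847045-84847123, minus strand: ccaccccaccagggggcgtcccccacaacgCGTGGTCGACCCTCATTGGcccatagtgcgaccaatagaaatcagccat
Canx, chr11:50325770-50325848, minus strand: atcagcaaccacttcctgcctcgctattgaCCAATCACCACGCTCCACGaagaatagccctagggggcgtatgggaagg
A match is a description of these letters and not of binding. Txndc5, a disulphide isomerase that rose by 1.57 ± 0.16 (adjusted p = 0.0007), instead held TGACGTGG, the unfolded protein response element, which is in 193 of 27025 promoters (0.714%) and in 1 of the 35. It is shown here because it is the only gene of the lists with that element.
Txndc5, chr13:38528015-38528082, minus strand: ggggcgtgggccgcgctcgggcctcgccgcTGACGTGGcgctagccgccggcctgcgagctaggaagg

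Extracellular matrix genes were lower in the old nodes. Of 36 genes of the collagen and matrix list 11 fell and 0 rose, against 0.66% of all genes, with a median change of -0.61. In 11 every old node lay below every young one, against 4.37% of all genes. The list covers fibrillar collagens, basement membrane and elastic fibre genes. Of 25 collagen chains taken by symbol 7 fell and 0 rose (median -0.65).

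The fibrillar collagen Col3a1, a main chain of reticular fibres, read 15663, 14216, 14911, 9565, 10965 and 8324 in young nodes 1 to 6. In old nodes 8, 9 and 10 it read 5408, 3276 and 2252. The groups did not overlap, and it fell by 1.80 ± 0.26 (adjusted p = 0.00637). Col5a2, which joins collagen fibrils, lay between 998 and 2038 in young nodes and at 839, 534 and 509 in old ones, and fell by 1.14 ± 0.22 (adjusted p = 0.0271). Col6a3, of microfibrillar collagen, fell by 1.16 ± 0.25 (adjusted p = 0.0455). Col1a1 had a change of -1.06 ± 0.38 (adjusted p = 0.173) and overlapped, since old node 8 stood at 1965 and the lowest young node at 1717.

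Basement membrane and elastic fibre genes were lower as well. Lama4, a laminin chain of vessel walls, read 658, 711, 666, 469, 372 and 637 in young nodes and 108, 295 and 74.8 in old ones, and fell by 1.95 ± 0.33 (adjusted p = 0.0161). Old node 9 was nearest to the young nodes, and there was no overlap. Col4a1, the basement membrane collagen, lay between 3035 and 5523 and at 2482, 2025 and 1856, and fell by 1.02 ± 0.18 (adjusted p = 0.0186). Elastin (Eln) lay between 964 and 2352 in young nodes (median 1517) and at 550, 644 and 473 in old ones, and fell by 1.39 ± 0.28 (adjusted p = 0.0343). Sparc, a collagen-binding protein of remodelling tissue, fell by 1.29 ± 0.21 (adjusted p = 0.0131). Fibronectin (Fn1), from the stroma list, fell by 1.26 ± 0.21 (adjusted p = 0.0136). Not all matrix moved this way: the proteoglycans Dcn (0.41 ± 0.12, adjusted p = 0.106) and Bgn (0.24 ± 0.09, adjusted p = 0.208) lay above 0 and did not pass.

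Within the young group a share of the matrix genes was higher in the youngest mice. For Col3a1 the mean was 14930 at 38 days (n = 3), 9618 at 48 to 73 days (n = 3) and 3645 in the old nodes. Eln stood at 2104, 1040 and 556 in the same order. The mean at 48 to 73 days lay below that at 38 days in 27 of 36 matrix genes and above it in the other 9, such as Postn (by 0.30) and Fmod (by 0.42, on the log2 scale). In 14 of 36 matrix genes all 3 nodes of 38 days lay above all 3 of 48 to 73 days (38.9%), against 8.95% of all genes. In 9 of 36 the 3 age steps did not overlap in that order (25%), against 0.452% of all genes, and 8 of the 11 called genes were among the 9. The 3 nodes of 38 days were also the highest in pancreas and gut genes. Their mean log2 levels were 11.27, 8.04 and 11.58, against 7.20, 6.23 and 6.25 in the nodes of 48 to 73 days. Age and neighbouring tissue can therefore not be told apart in this step. These steps were described after the values were seen and were not tested.

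**Figure D4:**
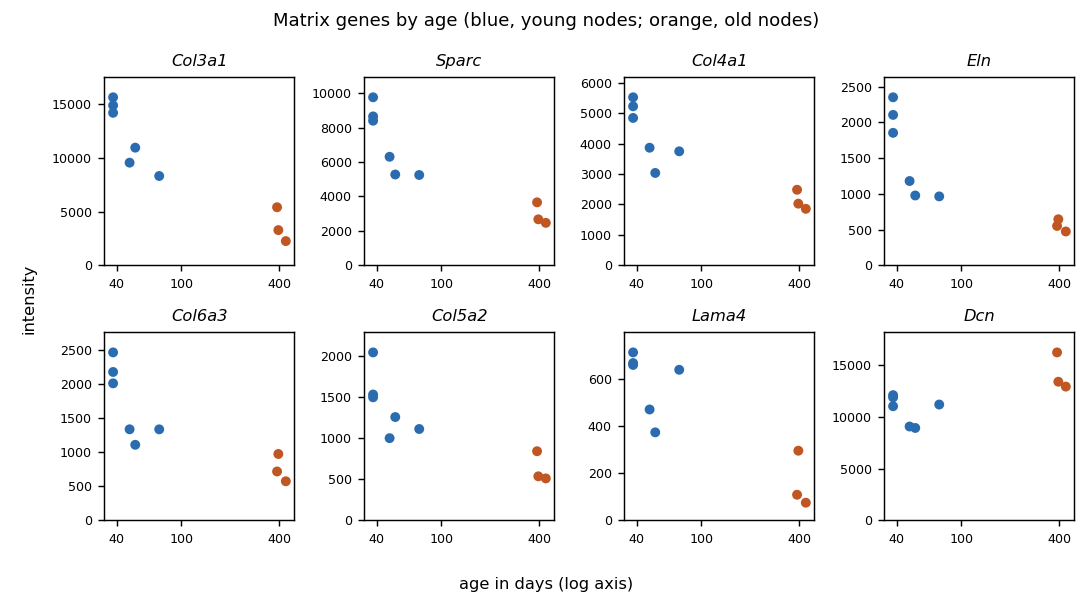
Intensity of 8 matrix genes against age in days (log axis) in the 9 lymph nodes, with blue points for young and orange for old nodes. In 7 of the genes the 38-day, 48- to 73-day and old nodes lie in falling steps without overlap, and Dcn has no such fall. The 38-day nodes were also the highest in pancreas and gut genes.

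The matrix count depended on single nodes. It was 1 without old node 10, the node with the lowest mean log2 level of the list (9.73). It was 7 without young node 1, 6 without young node 3, old node 8 or old node 9 each, and 8 or 10 without the others. It was 2 without young nodes 1 and 3, 4 without young nodes 1 and 4, 1 without the salivary-rich nodes, 1 with the Xist level and 0 with the Gapdh ratio as a covariate. From the fit without young nodes 1 and 3 onward in this order, the median stayed between -0.69 and -0.46. Without old node 8 alone it was -0.81. Col3a1 was past the threshold without young nodes 1 and 3 (-1.62, adjusted p = 0.0417) and not without the salivary-rich nodes (-1.74, adjusted p = 0.23). The part of neighbouring gland and fat in the matrix values was not tested beyond these fits.

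Vessel and contractile genes were mostly below 0 with few calls, and stromal genes lay on both sides of 0. Over all genes 0.66% were called lower and 1.35% higher, and 4291 of 24000 probe sets had an unadjusted p under 0.05. Calls of 1 or 2 members in lists of this size are given as values of the genes, not as a result about the lists. All 19 blood endothelium genes tested lay below 0 (median -0.30) and limma called 0, with 6 at an unadjusted p under 0.05. Of 11 high endothelial venule genes 1 fell, the sialomucin Cd34 (by 0.54 ± 0.11, adjusted p = 0.0297), and Glycam1 changed by -0.03 ± 0.28. Of 14 lymphatic endothelium genes 1 fell, podoplanin (Pdpn, by 0.56 ± 0.09, adjusted p = 0.0155), which reticular cells also express. Of 12 smooth muscle and pericyte genes 2 fell, the myosin light chain Myl9 (by 1.08 ± 0.21, adjusted p = 0.0275) and the actin Acta2 (by 0.96 ± 0.20, adjusted p = 0.0423). Of 19 reticular and follicular stroma genes 10 lay above and 9 below 0 (median 0.05), Fn1 fell and 1 rose, the chemokine Cxcl12, which retains plasma cells and other leukocytes. Cxcl12 lay between 7863 and 9874 in young nodes and at 13830, 12527 and 12350 in old ones, a rise of 0.58 ± 0.08 (adjusted p = 0.00659). The neural sodium channel Scn7a fell by 0.75 ± 0.17 (adjusted p = 0.0469), 1 of 5 neural and Schwann cell genes.

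Outside the matrix list, the largest falls included Ptn, a heparin-binding growth factor of development. It lay between 290 and 481 in young nodes (median 384) and at 78.3, 145 and 64.2 in old ones, and fell by 1.90 ± 0.23 (adjusted p = 0.00179). Meg3, an imprinted long non-coding RNA, fell by 1.57 ± 0.17 (adjusted p = 0.000865), but another of its probe sets changed by 0.08. Itm2a, a membrane protein of T cells and cartilage, fell by 1.35 ± 0.15 (adjusted p = 0.00111), the retinoic acid-degrading enzyme Cyp26b1 by 1.24 ± 0.14 (adjusted p = 0.00138) and Igfbp5 by 1.21 ± 0.25 (adjusted p = 0.0385). All old nodes lay below all young ones in each. Ptn and Cyp26b1 passed the filter only through the young nodes, where they are high. A fall was thus built into their being tested, and their values are given as a description.

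The mast cell proteases Mcpt4 and Cpa3 were higher in old nodes, and Mcpt4 had the largest rise of the named genes. Mcpt4, a chymase of connective tissue mast cells, read 20.0, 12.7, 18.0, 94.1, 84.7 and 15.6 in young nodes and 263, 1073 and 264 in old ones. Its rise was 3.20 ± 0.61 (adjusted p = 0.0265). Cpa3, a mast cell carboxypeptidase, read between 223 and 302 in young nodes and 494, 1306 and 467 in old ones, a rise of 1.38 ± 0.27 (adjusted p = 0.0277). In both the groups did not overlap and old node 9, the old node richest in salivary genes, was highest. In the young nodes Mcpt4 lay below the array median throughout, so it passed the filter only through the old nodes, where it is high. A rise was thus built into its being tested, and it and the count that follows are given as a description. These were 2 of 6 tested mast cell and basophil genes, with 0 lower, beside 1.35% of all genes called higher. Another 7 genes of the list with a probe set did not pass the filter. The chymase Cma1 had a change of 1.34 ± 0.38 (adjusted p = 0.106). The count was 1 without any 1 of the old nodes and 0 without young node 1 or young node 3. Without old node 9 the change of Mcpt4 was 2.55 (adjusted p = 0.103) and that of Cpa3 0.91 (adjusted p = 0.0154). The eosinophil granule gene Prg2 rose by 1.52 ± 0.22 (adjusted p = 0.00555), from 78.5 to 128 in young nodes to 292, 291 and 332 in old ones, and it too passed the filter only through the old nodes. Of the 156 genes called higher 4 passed in that way, Mcpt4 and Prg2 included, while 5 of the 76 called lower, Ptn, Gins2 and Cyp26b1 among them, passed only through the young nodes.

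Myeloid genes rose singly. Ccl8, a monocyte-attracting chemokine, lay between 2259 and 3344 in young nodes and at 8674, 10588 and 5116 in old ones, a rise of 1.49 ± 0.20 (adjusted p = 0.00412). Slpi, a protease inhibitor of phagocytes and of glands, lay between 1251 and 3784 and at 11573, 20078 and 9452, a rise of 2.64 ± 0.36 (adjusted p = 0.004). Without the salivary-rich nodes its change was 2.56 (adjusted p = 0.038). Gpnmb, a lysosomal glycoprotein of phagocytes, rose by 1.23 ± 0.18 (adjusted p = 0.00635) and the Fc receptor Fcgr4 by 1.43 ± 0.25 (adjusted p = 0.0175). Among 19 macrophage and monocyte genes 2 rose (Ccr2 0.80, Ms4a7 0.69), and among 19 sinus and phagocytic macrophage genes 2 rose (Gpnmb and Spic, 0.67), with 0 lower in either, beside 1.35% of all genes higher. Of 21 dendritic cell genes, 10 complement genes and 10 neutrophil genes limma called 0, with 8, 3 and 0 at an unadjusted p under 0.05. Among all probe sets 4291 of 24000 reached that threshold. Itgax of dendritic cells had a change of 0.69 (adjusted p = 0.0555).

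Few effector lymphocyte genes passed the threshold, while most lay above 0. Of 26 effector and memory T genes 21 lay above 0 (median 0.29), and 15 had an unadjusted p under 0.05, against 4291 of all 24000 probe sets. In 7 every old node lay above every young one, against 6.37% of all genes. The mean log2 level of the effector list was 10.14 to 10.33 in young and 10.47 to 10.65 in old nodes. That of the age-associated B cell list was 9.03 to 9.22 and 9.37 to 9.65, without overlap in either. This was not particular to these lists. Old nodes also lay above young ones in lists such as MHC class I (11.45 to 11.62 and 11.83 to 12.01), dendritic cell (10.07 to 10.24 and 10.25 to 10.40) and ribosomal proteins (13.91 to 14.12 and 14.13 to 14.41). Cxcr3, the chemokine receptor of type 1 effector T cells, lay between 711 and 1210 in young nodes and at 1367, 2072 and 2352 in old ones, a rise of 0.97 ± 0.20 (adjusted p = 0.0337). Tbx21, the factor T-bet, rose by 0.77 ± 0.16 (adjusted p = 0.0363) and Il18r1 by 0.60 ± 0.12 (adjusted p = 0.0317). These 3 of the 26 genes rose, against 1.35% of all genes, and Cxcr3 and Tbx21 are also the 2 of 12 genes that rose in the list of age-associated B cells. The count of the effector list was 0 without young node 4, old node 9 or old node 10 each, 1 without young node 1, 5 or 6 each, and 0 without the salivary-rich nodes. Gzmm, a granzyme, rose by 1.24 ± 0.19 (adjusted p = 0.00956), 1 of 14 NK and cytotoxic genes, and Cst7, a cystatin of cytotoxic cells, rose by 1.17 ± 0.12 (adjusted p = 0.000585), from 614 to 663 in young nodes to 1198, 1384 and 1813 in old ones. Ikzf2, a factor of regulatory T cells, rose by 0.54 ± 0.11 (adjusted p = 0.0357), 1 of 13.

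Limma called 0 of 18 genes of the T cell receptor complex (2 at an unadjusted p under 0.05), where Cd3e changed by 0.09 and Cd8a by 0.60 (adjusted p = 0.0754). It called 0 of 15 naive T cell genes (4 at an unadjusted p under 0.05, median -0.20), 0 of 12 follicular helper T genes (1) and 0 of 6 innate lymphoid and type 17 genes (1). It called 0 of 14 B lineage genes (2), 0 of 11 naive and follicular B genes (0) and 0 of 11 germinal centre genes (2). The counts in brackets are at an unadjusted p under 0.05, which 4291 of all 24000 probe sets reached. Of 12 marginal zone and B1 genes 1 rose, Ighm, beside 1.35% of all genes called higher. In these bulk profiles the plasma cell rise was thus measured beside B lineage genes with a median change of 0.09.

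**Figure D5:**
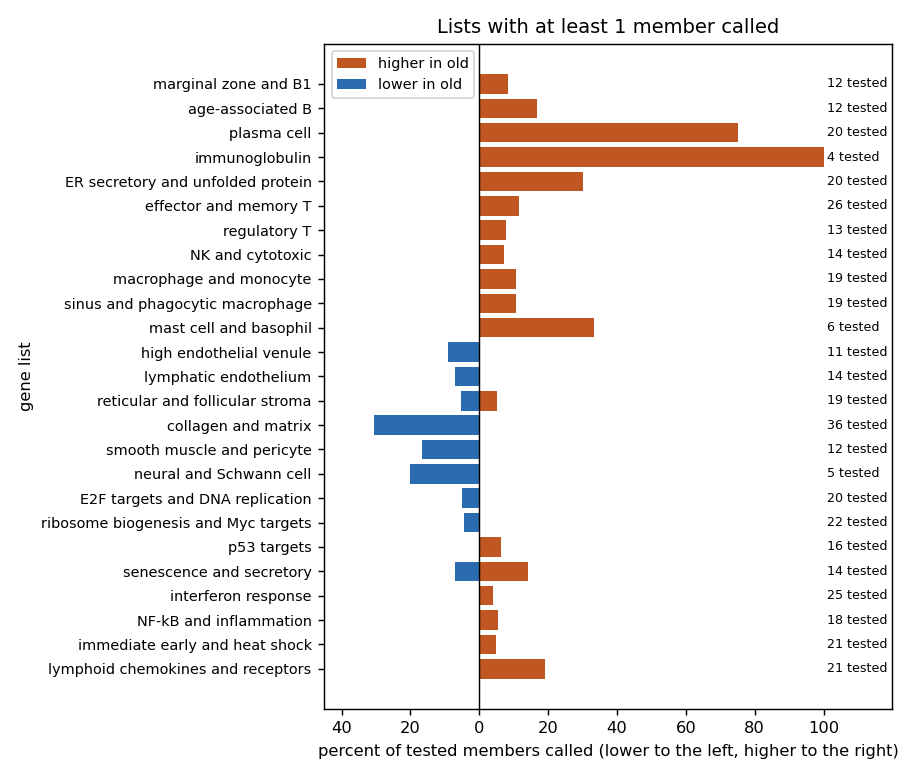
Percent of tested members of each gene list called higher (orange, right) or lower (blue, left) in old against young lymph nodes, for the 25 of 52 lists with at least 1 member called. The number tested stands at the right. Plasma cell and immunoglobulin lists reach furthest to the right and the collagen and matrix list furthest to the left.

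Few cell cycle and growth genes were called. Of 22 mitotic genes limma called 0 (6 at an unadjusted p under 0.05, beside 4291 of all 24000 probe sets), 21 lay below 0 and the median was -0.21. Of 20 E2F target and replication genes 1 fell, Gins2 of the replicative helicase complex, beside 0.66% of all genes called lower. Gins2 lay between 205 and 371 in young nodes and at 94.2, 53.3 and 138 in old ones, and fell by 1.55 ± 0.27 (adjusted p = 0.0178). It passed the filter only through the young nodes, where it is high, so a fall was built into its being tested. Of 22 ribosome biogenesis genes 1 fell, the polymerase subunit Polr1b (by 0.45 ± 0.10, adjusted p = 0.0418). Myc itself had a change of -0.44 ± 0.14 (adjusted p = 0.13). Cdkn2a, which encodes the senescence-linked Arf and p16, did not pass the filter and read 101 to 137 in young and 152, 186 and 162 in old nodes. In the senescence and secretory list Ccl8 and Gpnmb rose and Igfbp5 fell, of 14 tested.

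In 4 stress and immune lists 1 member each rose and 0 fell, beside 1.35% of all genes called higher, and single calls in lists of this size are given as values of the genes, not as a result about the lists. The genes were Pmaip1 of 16 p53 targets (0.51 ± 0.11), Zbp1 of 25 interferon genes (0.54 ± 0.12), Traf1 of 18 NF-kB genes (0.62 ± 0.14) and Hspa8 of 21 immediate early and heat shock genes (0.60 ± 0.13). Among 21 lymphoid chemokines and receptors Cxcl12, Ccl8, Cxcr3 and Ccr2 rose. Limma called 0 of 13 MHC class I genes (9 at an unadjusted p under 0.05), of which 12 lay above 0 with a median of 0.33, and 0 of 11 class II genes (5). It called 0 of 15 ribosomal protein genes (13), whose median of 0.25 became -0.03 after quantile normalization, 0 of 19 oxidative phosphorylation genes (7, median -0.12) and 0 of 16 glucocorticoid and circadian genes (4). Of 21 adipocyte, 9 salivary gland and 11 pancreas and gut genes it called 0 as well (8, 2 and 1 at an unadjusted p under 0.05), with medians of -0.83, -2.47 and -2.73. The same holds for the erythroid, platelet, skeletal muscle, thymus, mammary and skin epithelium, sex-linked and study gene lists, with between 2 and 12 members tested and at most 2 at an unadjusted p under 0.05. All these counts stand beside 4291 of 24000 probe sets at that threshold.

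The old spleen was set beside the nodes as 1 sample without a test. For 14 of the 15 largest rises and 12 of the 15 largest falls its value lay beyond all young nodes on the side of the old ones. Mcpt4 was the rise that did not, at 7.80 in the spleen. These genes were picked as the largest changes between the nodes. The share over all genes was not counted, so the counts are given as a description. The spleen differs in tissue as well as in age, which cannot be told apart.

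The change by age in nodes was compared with that between late and early onset in the lymphomas as a difference of differences over 59 arrays. It was called for 4 of 24000 probe sets (0.0167%), 1 higher (0.00417%) and 3 lower (0.0125%) in nodes. The largest was a probe set whose annotation names several genes, which read 6232, 1420, 5659, 14010, 7695 and 21185 in young nodes and 709.7, 504 and 375 in old ones, and differed by -3.83 ± 0.50 (adjusted p = 3.65e-06). Among young nodes it was lowest in node 2 and highest in nodes 4 and 6, as was the adipocyte level (9.62, 11.59 and 11.63). Old node 8, with an adipocyte level of 10.20, read lower than young node 2. The relation of this probe set to neighbouring tissue was not tested. Mcpt4 differed by 2.94 ± 0.53 (adjusted p = 0.00899), Pdk1 by -1.76 ± 0.36 and Rab6b by -3.37 ± 0.69 (adjusted p = 0.0428 for both). Mcpt4 passed the filter only through the old nodes. Pdk1 and Rab6b lay below the array median in every old node and passed only through young ones. The direction of each change in nodes was thus built into its being tested, and these values are given as a description. The 15 plasma cell genes that rose in nodes had a median of 1.24 there and of 1.17 between late and early lymphomas, where 13 were higher in the late ones. The share of all probe sets called between the lymphomas is not given here, so the 13 are a description. Because the genes were selected for their change in nodes, the node median is favoured, as it is for the matrix genes below. Limma called 0 of the plasma cell differences, with 1 at an unadjusted p under 0.05. For this difference 1263 of 24000 probe sets reached that threshold. The 11 matrix genes had medians of -1.14 in nodes and -0.04 in lymphomas, with 0 differences called and 8 at an unadjusted p under 0.05. A difference that was not called does not show that the values are alike.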

How the data were processed

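RNA of snap-frozen tissue was hybridised to Affymetrix Mouse430_2 arrays, per the labels. The deposited values are linear intensities from the authors' MAS5 processing (version not given), named in the submitters' processing notes, with every array scaled to a common trimmed mean. Groups, ages and node numbers came from the labels. Here the deposited intensities were put on a log2 scale as log2(intensity + 15.7), without rescaling. Of 45101 probe sets 34945 name 1 gene, 932 several and 9160 none in the platform annotation, and 64 are controls, left out. By gene identifier 34741 were found in RefSeq of GRCm38.p6, used for names. A probe set was kept if it exceeded its array's median in at least 3 of the 9 nodes, which left 24000. For each gene the brightest probe set over the nodes that names no other gene was used. Of 109 called genes with another kept probe set, 93 had all others in the same direction.

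Groups were compared with limma 3.58.1 in R 4.3.3 (lmFit, then eBayes with a mean-variance trend). Tests were two-sided, and p-values were adjusted by Benjamini-Hochberg with a threshold of 0.05. The fit was tested on simulated data for this comparison, where it recovered 67 of 100 probe sets changed by 1 and 98 of 100 changed by 2 on the log2 scale, with 6 false calls among 24000. The simulated noise was independent between probe sets. It held none of the differences in neighbouring tissue, sex or RNA measures that genes of the real nodes share. The 6 false calls therefore do not give the error of the real comparison. Single measures were compared by an exact permutation test. Other software was Python 3.11.15 with numpy 2.4.6, pandas 2.3.3, scipy 1.17.1 and matplotlib 3.10.9. The number of arrays limits the precision.

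The nodes, the 52 gene lists (983 entries, 863 with a probe set) and the rule for named genes were chosen with earlier results of these data known. The rule takes the 15 largest rises and falls, up to 5 called members of each list, the member with the smallest p where none was called, 5 each way in the difference from the lymphomas, and the defining markers of cell types. Genes named beyond it, among them Prdm1, Irf4, Col5a2, Col4a1, Col1a1, Dcn, Bgn, Cma1, Prg2, Fcgr4 and Cst7, were chosen after their values were seen. Alternatives were other pseudocounts, filters and scalings, the spread of all 60 arrays, the spleen added, age as a continuous term, the Gapdh ratio, Xist or salivary level as covariates, array weights and nodes left out.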

Additional observations from a re-analysis of the deposited data

Results flagged for a closer look

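Among 93 named genes with 6 young nodes, 6 had a young node standing apart from the rest, where the gap to its nearest neighbour exceeded Dixon's critical value. Chance gives about 1 in 20 groups. The gap as a share of the range was 0.706 for Ikzf2 in young node 6, 0.658 for Csf3r in young node 3, 0.692 for Cpa3 in young node 4, 0.637 for Csn1s1, a milk casein, in young node 6, 0.824 for Cd74 in young node 2 and 0.655 for Rps9 in young node 4.

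The change by age in nodes differed from that between late and early lymphomas in 4 probe sets (limma, adjusted over 24000). The difference was -3.83 for a probe set that names several genes, 2.94 for Mcpt4, -1.76 for Pdk1 and -3.37 for Rab6b. The probe set of several genes ran from 1420 to 21185 among young nodes, and its relation to neighbouring tissue was not tested. In nodes Rab6b read between 110 and 248 in young and 3.50, 114 and 8.50 in old nodes, and Pdk1 between 91.6 and 252 in young and 69.9, 51.8 and 29.0 in old nodes. Both passed the filter only through young nodes, and Mcpt4 only through the old ones, so the direction of these changes was built into their being tested.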

How the results depend on the processing

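Over 26 alternatives 0 named genes reversed, and 0 of 62 called ones kept their call in all; Oosp1 and Ighg3 kept it in 25. In the order all, higher, lower, plasma cell, ER and matrix, the counts of 434, 267, 167, 15, 6 and 11 became 12, 4, 8, 0, 0 and 1 with the spread of all 60 arrays, and 12, 11, 1, 1, 0 and 0 with the Gapdh ratio as a covariate. They were 123, 97, 26, 12, 1 and 1 with Xist as a covariate and 121, 90, 31, 11, 0 and 1 with the salivary level as a covariate, an alternative chosen after seeing the data like the next 3. Without young nodes 1 and 3 they were 120, 96, 24, 12, 1 and 2, without young nodes 1 and 4 they were 132, 101, 31, 12, 1 and 4, and without young nodes 1, 3, 5 and 6 and old node 9 they were 51, 40, 11, 3, 0 and 1. Leaving out 1 node gave 176 to 457 calls, 115 to 282 higher and 42 to 175 lower, with plasma cell genes at 12 to 15, ER genes at 1 to 7 and matrix genes at 1 to 10. The count was 202 without young node 1, 239 without young node 3, 283 without young node 4, 190 without old node 8 and 176 without old node 10. The 4 differences from the lymphomas became 2 after quantile normalization and 15 with the larger pseudocount, and 2 to 12 without 1 node. The Gapdh ratio does not overlap between the ages, and the cause of each lost call was not tested. The old against young counts stayed within 1.5 times under the other alternatives, and all results rest on 3 old nodes. No paired analysis was possible because the node numbers of the labels differ between young and old mice.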

Other observations

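Trim30d and its neighbour in the same gene family Trim12a varied between nodes of both ages. Trim30d read 1040 in young node 4, 504 in young node 6 and 641 in old node 10, and between 36.3 and 154 in the other 6 nodes. Trim12a read 510, 263 and 385 in the same 3 nodes and between 72.5 and 145 in the others. The milk casein Csn2 read 2829 in young node 6 and between 93.2 and 227 in the other nodes. The thermogenic fat gene Ucp1 read 3351 in young node 4, 1033 in young node 6 and 446 in young node 3, and at most 23.0 in the others. These genes were chosen after their values were seen.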
